A study of Mus musculus with 2 samples.

Results

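The Klf, Sp and Egr genes encode transcription factors that end in a row of zinc fingers and bind GC-rich DNA. The 30 protein-coding mouse genes named Klf, Sp or Egr with a number were chosen by symbol (17 Klf, 9 Sp and 4 Egr genes of 21887 protein-coding genes). A gene was then marked when an ARID4B interval of the deposited list overlapped its record in the GRCm38 gene table, or the 1 kb either side, by at least 1 bp. The marking thus rests on the same intervals that are described here, and the counts below are a description of this list. The study immunoprecipitated chromatin from 1 pool of 108 testes of wild type mice at postnatal day 1.5, hybrids of C57BL6/J and 129/SvEv, with an antibody against ARID4B. Its 1 ChIP library was set against 1 library of input DNA from the same kind of testes, which was prepared without an antibody. No value below has a replicate. The input was the only control, so how far an interval depends on ARID4B was not tested.

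ARID4B is a subunit of the SIN3-histone deacetylase complex, which is brought to DNA by sequence-specific factors and represses transcription there. Klf9, Klf10, Klf11, Klf13, Klf14 and Klf16 belong to the branch of the Klf family whose proteins carry a SIN3-interacting segment. Klf3, Klf8 and Klf12 recruit the corepressor CtBP instead, and Klf1, Klf2, Klf4, Klf5, Klf6 and Klf7 are known mostly as activators. Sp proteins bind the GC box found in many promoters without a TATA box. Egr proteins are immediate early factors, made within minutes of growth factor or gonadotropin signals, and bind a GC-rich site of their own. Whole testes were used, so an interval cannot be given to Sertoli, Leydig, germ or other cells, and no expression was measured that would check the tissue against its markers.

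ARID4B intervals lay at most genes of the family. Of the 30 genes 23 had an interval (76.7%), where 6709 of all 21887 protein-coding genes had one (30.7%). The genes without one were Klf1, Klf6, Klf8, Klf10, Klf17, Sp1 and Sp5. Each interval carries the authors' own score, which ranks intervals within this list, from 70.02 to 1760.61 with a median of 125. The best interval of a marked Klf, Sp or Egr gene had a median score of 137, against 132 over all marked protein-coding genes. The scores ran from 73.1 at Sp7 to 703 at Klf16, and 14 of the 23 genes lay above the median of the list. The ranks of these best intervals ran from 33 to 6360 of 6632. Klf genes scored higher than Sp genes by median, with overlapping ranges and at a like share of marked genes. Of 17 Klf genes 12 were marked (70.6%) with a median best score of 192, and of 9 Sp genes 7 were marked (77.8%) with a median of 97.7. Best scores ran from 122 to 703 at the marked Klf genes and from 73.1 to 231 at the marked Sp genes. Marked genes are drawn with their scores in the plot of interval scores by gene.

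**Figure D1:**
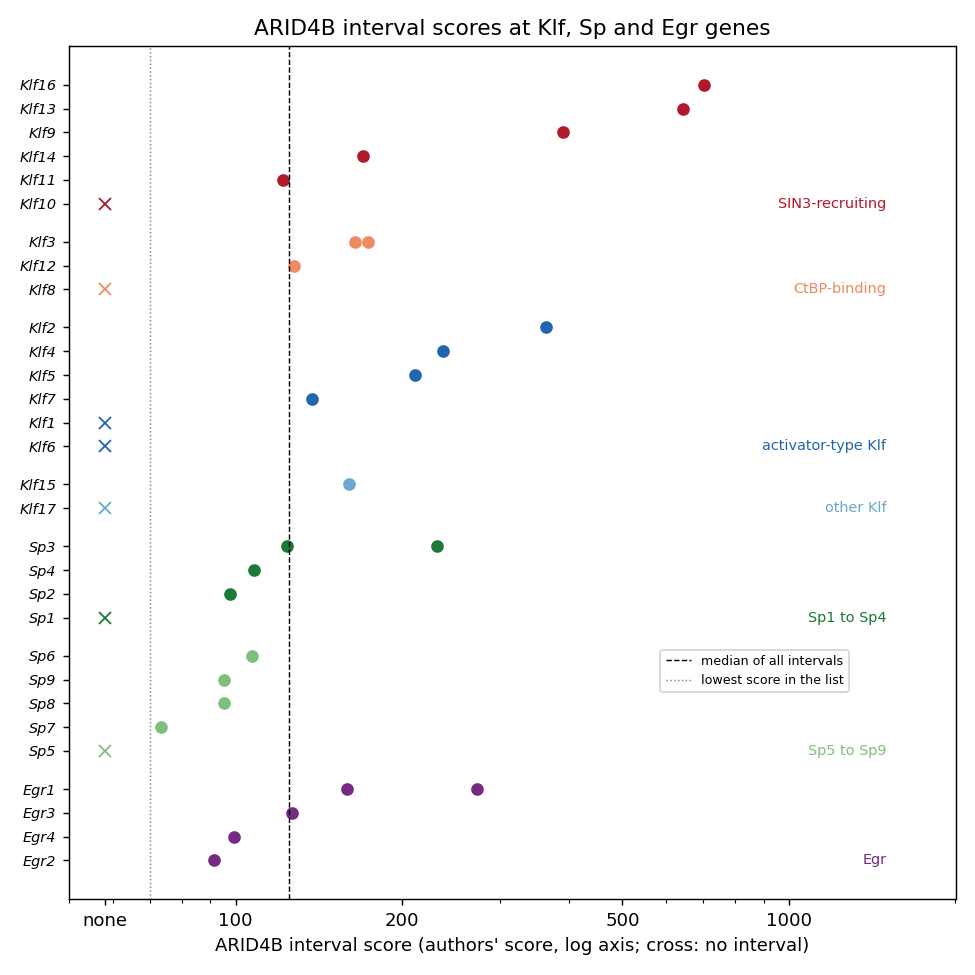
Scores of the ARID4B intervals at 30 Klf, Sp and Egr genes, on a log axis, with genes in rows, grouped by role and ordered by best score. Each dot is 1 interval and a cross is a gene without one; Klf16, Klf13, Klf9 and Klf2 have the highest scores (703, 644, 391 and 363), and the 4 marked genes of Sp5 to Sp9 all lie below the list's median of 125.

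The 6 SIN3-recruiting genes held the 3 highest scores of the family, and 5 of the 6 were marked. That share (83.3%) was near the 76.7% of the whole family, where all protein-coding genes stood at 30.7%. All 4 Egr genes and 80.0% of Sp5 to Sp9 were marked too, so the share did not set the SIN3-recruiting genes apart. Klf16, also known as dopamine receptor regulating factor, had the interval of rank 33 among 6632 (chr10:80575750-80579077, score 703). It ran over the upper end of the record (chr10:80567121-80577296), with 46.5% of its length inside, and also overlapped or lay within 1 kb of the lncRNA gene Gm26710. Klf13, a factor first described in T cells as RFLAT-1, had rank 49 (chr7:63936774-63939898, score 644). That interval ran from 983 bp before the start of Klf13 to 2141 bp after it. Klf9, a target of glucocorticoid and thyroid hormone receptors, had rank 255 (chr19:23140580-23142202, score 391), with the midpoint 165 bp after its start. These 3 genes stood clear of the remaining SIN3-recruiting genes, whose scores lay nearer the median of the list. Klf14, an imprinted gene in the mouse, had 170 (chr6:30957673-30958841, wholly inside the record). Klf11, also known as TIEG2, had 122 (chr12:24650776-24652004), just below the list's median, and its interval was centred 19 bp from the start.

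Klf10, the TGF-beta inducible early gene and closest relative of Klf11, had no interval in its record (chr15:38291464-38300711). The nearest one lay 173 kb away. The difference between Klf10 and Klf11 is one of presence in this list. The lowest score in the list was 70.02 and weaker enrichment is not shown in it, so an absent interval gives no measure of how much less ARID4B signal was there.

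Of the 3 CtBP-binding genes Klf3 and Klf12 were marked (66.7%, against 30.7% of all protein-coding genes) and Klf8 was not. Klf3, a repressor known from erythroid and fat cells, had 2 intervals. The better one (chr5:64802426-64803185, score 174) ended 336 bp before the start, and the second (chr5:64803319-64804334, score 165) covered it. Both also lay within 1 kb of Gm38457, a predicted protein-coding gene, so Klf3 was the only member whose intervals were shared with another protein-coding gene. Klf12, which represses the gene of AP-2 alpha, had a score of 127 (chr14:100285281-100286309) at the upper, 5′ end of a record of 420 kb, and no interval anywhere else in that record. The Klf12 interval also overlapped or lay within 1 kb of the lncRNA gene Gm41231. The Klf8 record on the X chromosome (chrX:153225339-153398925) was free of intervals, and the nearest lay 1.42 Mb away. The X chromosome carried 29 of the 6632 intervals. The part of the chromosome in the Klf8 value was not tested.

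Of the 6 activator-type Klf genes 4 were marked (66.7%), against 76.7% of the whole family and 30.7% of all protein-coding genes. Klf2, known for quiescence of T cells and endothelium, had the fourth highest score of the family (chr8:72318749-72321018, score 363). At 2270 bp its interval covered most of a record of 2.59 kb. Klf4, a pluripotency factor also known from Sertoli cells, had 237 (chr4:55529958-55531680). Its interval lay inside the gene and began 795 bp after the start. Klf5, a factor of dividing epithelia and of the early embryo, had 211 (chr14:99298471-99299639) over the lower end of its record. Klf7, a factor of developing neurons, had 137 (chr1:64121553-64122546), 164 bp upstream of its listed start and over the upper end of its record. The Klf7 interval also overlapped or lay within 1 kb of the lncRNA gene Gm35880. All 4 marked genes of this group lay above the median of the list. Klf1, the erythroid regulator of beta-globin, and Klf6, a widely induced early factor, had none. At Klf1 the nearest interval was 7.14 kb away and at Klf6 2.25 Mb away. The Klf6 gap was wider than that of 95.1% of unmarked protein-coding genes on chromosomes with intervals, whose median gap was 118 kb.

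Klf15, a metabolic regulator of liver and muscle, had an interval over its listed start (chr6:90461972-90463544, score 160). Klf17, a gene of germ cells and early embryos, had none in its record (chr4:117756659-117765666), the nearest lying 69.5 kb away with a score of 474.

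Among Sp1 to Sp4, the widely made Sp proteins with glutamine-rich activation domains, Sp1 itself had no interval. The nearest to its record (chr15:102406316-102436404) was 34.4 kb away with a score of 102. Sp3, which competes with Sp1 for the same GC boxes, had 2 intervals with scores of 231 (chr2:72979811-72981206) and 124 (chr2:72978869-72979577). Each covered 1 of the 2 listed starts of Sp3, and both also overlapped or lay within 1 kb of the lncRNA gene Sp3os. Sp4, a factor of the nervous system, had 108 (chr12:118301495-118302655), in an interval that stopped 55 bp short of its record on the upstream side. Sp2, which is needed for early development in the mouse, had 97.7 (chr11:96976787-96977683), beginning 5 bp after the second of 3 listed starts and centred 5724 bp from the upper end of the record. Of all best intervals, those of Sp4 (55 bp) and Klf3 (336 bp) alone lay wholly outside the gene record. The nearest interval at an unmarked gene was that of Klf1 at 7.14 kb, so no member lay close to the 1 kb limit.

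Sp5 to Sp9 are developmental regulators, and 4 of the 5 were marked (80.0%, against 30.7% of all protein-coding genes). The marked ones had the lowest median score of any group (95.3). Sp6 (epiprofin, of teeth and skin) had 107, Sp9 95.4, Sp8 95.1 and Sp7 (osterix, of bone) 73.1. Sp8 and Sp9 are known from limb buds and forebrain interneurons. All 4 intervals lay wholly inside the gene records, at chr11:97021868-97022676 for Sp6, chr2:73272694-73273968 for Sp9, chr12:118849076-118850032 for Sp8 and chr15:102358110-102358970 for Sp7. The Sp6 interval also overlapped or lay within 1 kb of the lncRNA gene Gm11532. The Sp7 score stood close to the lowest in the list, with 4.09% of all intervals scoring lower. Sp5, a direct target of Wnt signalling, had no interval within 183 kb.

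Of the 9 Sp genes 8 lie in 4 pairs on 1 chromosome each, 1 of Sp1 to Sp4 with 1 of Sp6 to Sp9, and the intervals within a pair were separate ones. Sp5 is in none of them, at 2460 kb from Sp3 and 2790 kb from Sp9 on chromosome 2. Sp2 and Sp6 are 30.6 kb apart on chromosome 11 and had scores of 97.7 and 107. Sp4 and Sp8 are 545 kb apart on chromosome 12 and had 108 and 95.1. Sp3 and Sp9 are 291 kb apart on chromosome 2 and had 231 and 95.4. Sp1 and Sp7 are 39.3 kb apart on chromosome 15, and there Sp7 was marked and Sp1 was not.

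All 4 Egr genes were marked, where 30.7% of all protein-coding genes were. Egr1, an immediate early gene that gonadotropin-releasing hormone induces in the pituitary, had 2 intervals on chromosome 18. The first had a score of 273 (chr18:34860830-34862001, over the lower end of the record), the highest of the Egr genes, and the second 159 (chr18:34862055-34863051, inside). Egr3, needed for muscle spindles in the mouse, had 127 (chr14:70078235-70079228). Egr4, without which male mice are infertile through a germ cell defect, had 99.4 (chr6:85511208-85512746), and its interval began 843 bp after the start. Egr2, the Krox20 gene of hindbrain and myelinating cells, had 91.4 (chr10:67538430-67539330), 500 bp after the last of 5 listed starts. Egr1 and Egr3 lay above the median of the list, Egr4 and Egr2 below it.

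Width went with score. Across all intervals, which are not independent replicates and share 1 library, Spearman's rho of score and width was 0.61. The Klf16 interval was 3328 bp wide and the Klf13 interval 3125 bp, both among the 49 of 6632 (0.739%) wider than 3 kb. The Klf2 interval at 2270 bp was wider than 97.3% of the list. Klf9 reached its score of 391 with 1623 bp. Best intervals of the 23 marked genes had a median width of 1169 bp, against 1107 bp for the best intervals of all marked protein-coding genes. At the other extreme Klf3's better interval, with 760 bp, was narrower than all but 11.4% of the list and still scored 174.

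**Figure D2:**
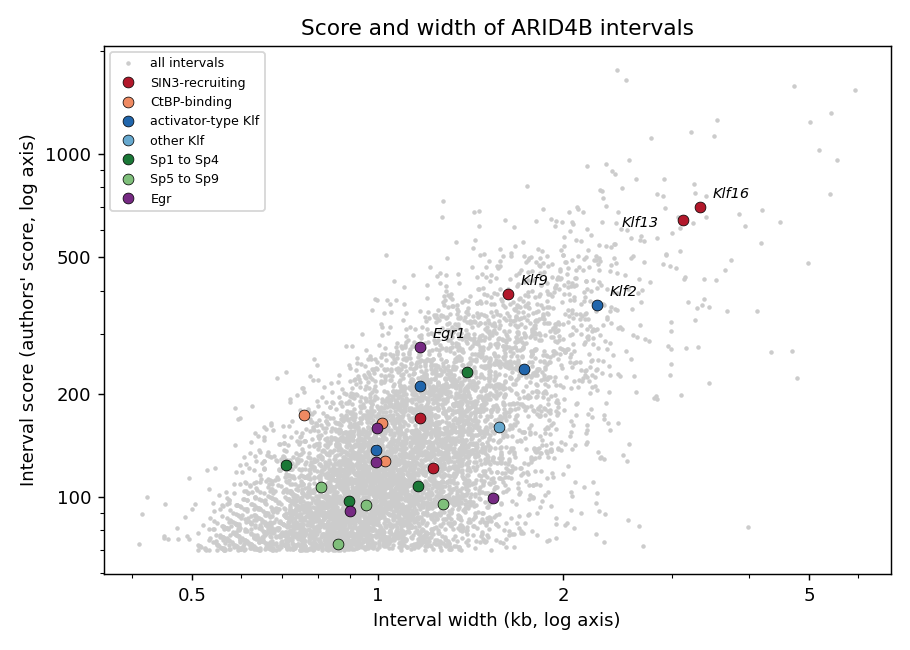
Score (vertical) against width in kb (horizontal) of all 6632 ARID4B intervals in grey, both on log axes, with the 26 intervals at Klf, Sp and Egr genes coloured by role. Klf16 and Klf13 lie in the wide, high-scoring corner, while most members fall in the middle of the cloud near the list's median width of 1084 bp.

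The place of the interval within the gene varied between the groups. Starts of transcription were listed in the RefSeq promoter table (GRCm38.p6) for 22 of the 30 genes and for 16 of the 23 marked ones. Counting only an interval within 1 kb of a listed start, 14 of these 22 genes had one (63.6%), against 28.0% of the 17492 protein-coding genes with a listed start. Counting only the 1 kb either side of an end of the record, 18 of the 30 genes had one (60.0%), against 27.1% of all protein-coding genes. Egr2, Sp2, Sp6, Sp7 and Sp8, 5 of the 23 marked genes (21.7%), were marked only deeper inside the record, against 779 of the 6709 marked protein-coding genes (11.6%). The best interval of 6 of the 16 genes covered a listed start (37.5%), a position taken by 76.1% of the best intervals of all 5373 marked protein-coding genes with a listed start. These 6 were Klf2, Klf9, Klf11, Klf13, Klf15 and Sp3. At 6 others, Klf4, Sp2, Sp8, Sp9, Egr2 and Egr4, it lay wholly downstream of the nearest listed start (37.5%, against 17.9%), beginning between 5 and 1517 bp after it. At Klf3, Klf7, Klf12 and Sp4 it lay upstream (25%, against 5.99%). The Klf12 distance of 135485 bp is to the only listed start of that gene, which lies deep inside its record. The only listed start of Klf7 also lies inside its record. At both genes the interval lay over the 5′ end of the record, so its upstream place depends on which start is listed. Best intervals wholly inside the record made up 11 of the 23 (47.8%, against 31.3% of all marked protein-coding genes), among them all 4 of Sp6 to Sp9 and 3 of the 4 Egr genes, but 1 of the 5 marked SIN3-recruiting genes. A wider interval reaches a start more easily, and the part of width in these positions was not tested.

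**Figure D3:**
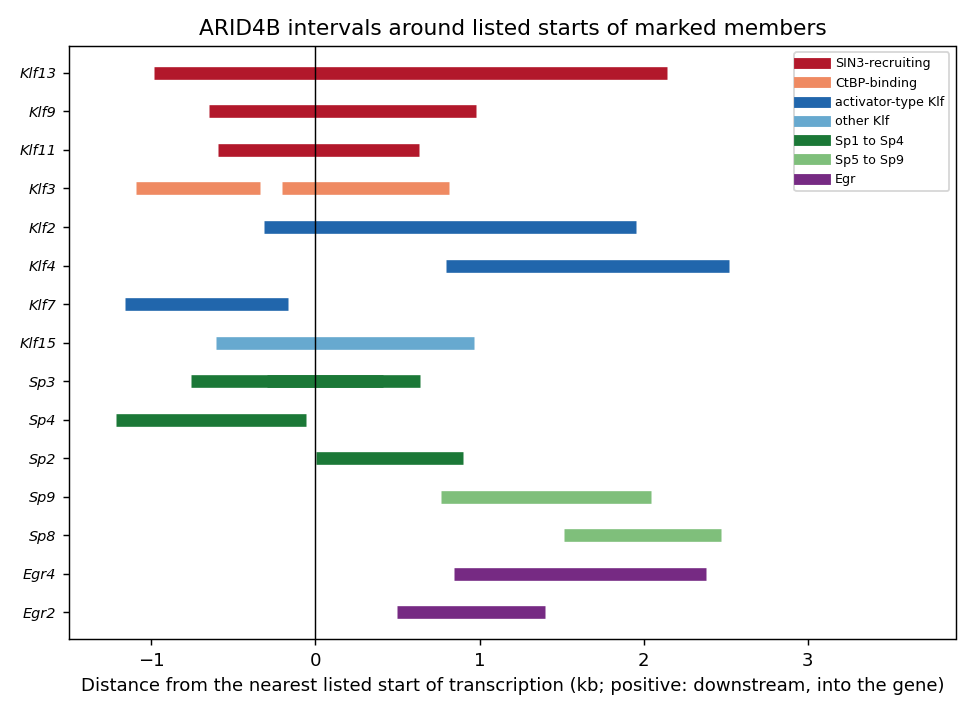
Intervals at 15 marked genes with a listed start, drawn by distance from the nearest listed start in kb along the direction of transcription, with genes in rows (each Sp3 interval against its own start, Klf12 left out). Klf13, Klf9, Klf11, Klf2, Klf15 and Sp3 span the start with their best interval, Klf4, Sp9, Sp8, Egr4 and Egr2 begin 500 to 1517 bp downstream, and Sp4 and Klf7 end upstream.

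Promoter sequence was read at listed starts, whether or not an interval reached them, and the sequence of the intervals themselves was not analysed here. In the RefSeq table a promoter window runs from 250 bases before to 50 after a listed start, 300 in all, and the family has 32 windows of 22 genes, 11 of which an interval touched. The 5 windows printed first are ones that an ARID4B interval touched, chosen to hold the 3 highest-scoring Klf genes with a listed start and, of the Sp genes, Sp3 and Sp2. Klf16, which scored higher than these, has no window in the table. They are written 5′ to 3′ along the gene, with GC boxes (GGGCGG) and CACCC boxes (CCACCC) on either strand in capitals.
Klf13 (chr7:63938866-63939165, - strand): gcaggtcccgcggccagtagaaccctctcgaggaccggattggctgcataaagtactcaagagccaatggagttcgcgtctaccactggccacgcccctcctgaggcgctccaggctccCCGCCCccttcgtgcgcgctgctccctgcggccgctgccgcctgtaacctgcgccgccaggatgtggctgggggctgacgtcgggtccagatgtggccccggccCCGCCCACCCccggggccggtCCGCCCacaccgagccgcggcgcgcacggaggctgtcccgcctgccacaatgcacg
Klf9 (chr19:23140976-23141275, + strand): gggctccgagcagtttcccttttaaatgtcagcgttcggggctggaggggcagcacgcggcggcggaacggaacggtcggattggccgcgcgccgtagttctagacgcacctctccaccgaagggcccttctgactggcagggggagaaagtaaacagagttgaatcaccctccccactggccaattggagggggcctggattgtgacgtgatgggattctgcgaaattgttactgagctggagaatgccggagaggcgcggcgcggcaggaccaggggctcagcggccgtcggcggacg
Klf2 (chr8:72318812-72319111, + strand): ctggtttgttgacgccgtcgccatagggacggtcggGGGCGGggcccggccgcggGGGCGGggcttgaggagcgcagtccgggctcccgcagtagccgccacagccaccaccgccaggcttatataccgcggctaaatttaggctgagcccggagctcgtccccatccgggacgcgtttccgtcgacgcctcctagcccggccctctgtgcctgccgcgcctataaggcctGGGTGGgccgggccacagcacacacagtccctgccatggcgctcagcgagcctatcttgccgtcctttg
Sp3 (chr2:72980397-72980696, - strand): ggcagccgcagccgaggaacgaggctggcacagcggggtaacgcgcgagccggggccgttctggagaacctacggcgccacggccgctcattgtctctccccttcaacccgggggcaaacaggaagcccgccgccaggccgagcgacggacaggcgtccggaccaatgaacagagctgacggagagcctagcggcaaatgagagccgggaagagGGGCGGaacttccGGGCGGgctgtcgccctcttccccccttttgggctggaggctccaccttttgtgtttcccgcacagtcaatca
Sp2 (chr11:96977639-96977938, - strand): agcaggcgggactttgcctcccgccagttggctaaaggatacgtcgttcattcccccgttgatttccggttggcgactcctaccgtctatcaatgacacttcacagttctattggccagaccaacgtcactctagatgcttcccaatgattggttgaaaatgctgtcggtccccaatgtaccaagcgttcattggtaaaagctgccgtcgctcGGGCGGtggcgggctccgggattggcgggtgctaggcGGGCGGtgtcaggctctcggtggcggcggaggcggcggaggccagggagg
The Klf13 window had 3 GC boxes and 1 CACCC box, run together in part, and was covered by the interval over all 300 bases. The Klf2 window held 2 GC boxes and 1 CACCC box. The Klf9 window, whose interval scored 391, had neither GGGCGG nor CCACCC on either strand, although it holds the shorter string CACCC. The first 45 bases of the Sp2 window by coordinate were touched by the interval, and they are the last 45 along the gene, so both GC boxes of that window begin upstream of them.

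The 3 windows printed next belong to genes without an interval and were chosen to show how their box and CG counts vary.
Klf6 (chr13:5861239-5861538, + strand): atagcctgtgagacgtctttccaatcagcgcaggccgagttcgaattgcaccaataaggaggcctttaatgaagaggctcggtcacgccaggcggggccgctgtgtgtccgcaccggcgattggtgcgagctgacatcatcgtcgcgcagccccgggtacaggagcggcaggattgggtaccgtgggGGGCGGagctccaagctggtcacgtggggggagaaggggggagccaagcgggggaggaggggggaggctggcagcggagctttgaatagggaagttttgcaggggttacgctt
Sp1 (chr15:102406066-102406365, + strand): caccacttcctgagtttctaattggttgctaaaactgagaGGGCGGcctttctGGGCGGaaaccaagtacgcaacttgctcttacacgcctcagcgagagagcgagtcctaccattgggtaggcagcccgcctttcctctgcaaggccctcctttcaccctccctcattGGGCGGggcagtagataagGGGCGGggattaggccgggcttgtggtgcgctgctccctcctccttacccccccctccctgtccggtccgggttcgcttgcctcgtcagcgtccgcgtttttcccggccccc
Klf17 (chr4:117765617-117765916, - strand): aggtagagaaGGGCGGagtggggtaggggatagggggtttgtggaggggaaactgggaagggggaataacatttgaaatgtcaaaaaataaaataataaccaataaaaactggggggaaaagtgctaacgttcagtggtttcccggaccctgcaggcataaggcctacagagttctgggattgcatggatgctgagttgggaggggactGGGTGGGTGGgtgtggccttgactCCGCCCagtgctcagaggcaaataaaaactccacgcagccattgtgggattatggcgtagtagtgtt
Sp1 had 4 GC boxes in this window and Klf6 had 1, while Klf17 had 2 GC boxes and 2 CACCC boxes that overlap. The Klf17 window had 6 CG dinucleotides, against 19 in the Sp1 window and 23 in the Klf6 window.

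Counted over all windows, a GC box was present in 10 of 11 member windows that an interval touched (90.9%) and in 10 of 21 that none touched (47.6%). Among all protein-coding genes the shares were 75.9% of 5091 touched windows and 36.8% of 16172 others. The CACCC box was found in 6 of the 11 touched windows and 12 of the 21 others (54.5% and 57.1%), against 38.1% and 32.1% over all protein-coding genes. The EGR site, searched as GCGNGGGCG, was in 5 of 11 and 1 of 21 windows (45.5% and 4.76%), against 14.5% and 5.34%. Followed by a G, this site contains a GC box, so these counts overlap. The CArG box, the site of SRF, was in none of the 11 touched windows and in 5 of the 21 others, 4 of them windows of Egr2 and 1 of Klf8. It was in 1.52% of all protein-coding windows. The letters TATAAA were in none of the 11 and 2 of the 21 windows, and in 12.6% of all. Median GC content was 72.0% in the touched member windows and 57.3% in the others, against 65.3% and 53.3% over all protein-coding genes. The part of base composition in these shares was not tested. Both strands were searched, several windows of 1 gene can overlap, and a match is a description of these letters only.

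Windows that an interval touched were richer in CpG by median, inside the family as across all genes. Counted by gene, those with a CpG-rich window were more often marked. The ratio of observed to expected CG dinucleotides had a median of 0.91 in the 11 touched member windows and 0.68 in the 21 others. Over all protein-coding windows the medians were 0.84 and 0.39. The untouched member windows include windows of marked genes, from 0.15 at Sp2 to 1.19 at Sp8, so they are not those of unmarked genes alone. Of 17 members with a listed window at a ratio of 0.6 or more, 15 were marked (88.2%), against 51.4% of 8896 protein-coding genes of that kind. The exceptions were Klf6, at 0.84, and Sp1, at 0.68. Of 5 members with every listed window below 0.6, only Klf12 was marked (20%, against 9.28% of 8596 genes). The others were Klf1 at 0.15, Klf8 at 0.24 and 0.32, Klf17 at 0.38 and Sp5 at 0.40. The limit of 0.6 was set after the values were seen.

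**Figure D4:**
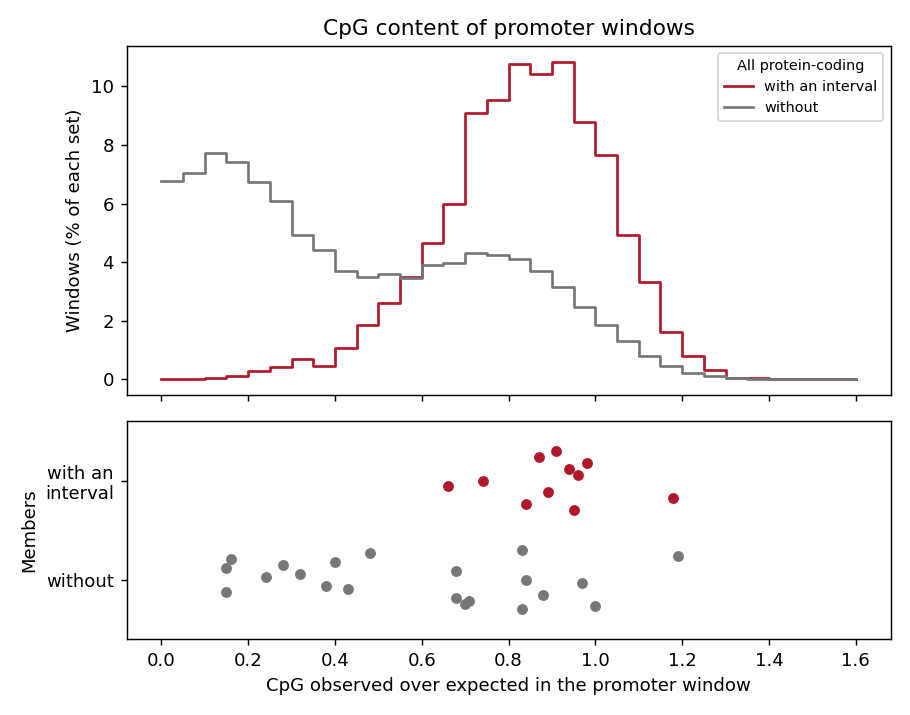
Ratio of observed to expected CpG in promoter windows, above as the distribution over all protein-coding windows with and without an ARID4B interval (percent of each set) and below as the 32 windows of Klf, Sp and Egr genes (dots, spread vertically to be seen). Windows with an interval gather near 0.9 in both panels, while the member windows without one run from 0.15 to 1.19.

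The share of marked genes can be set beside those of other transcription factor families named by symbol. Of the Klf, Sp and Egr genes 76.7% were marked, of the Gli, Zic and Glis zinc finger genes 63.6% (7 of 11), of Sox genes 57.9% (11 of 19), of Fox genes 56.8% (25 of 44), of Hox genes 43.6% (17 of 39), of Gata genes 33.3% (2 of 6) and of Irf genes 33.3% (3 of 9). Numbered Zfp genes, most of them zinc finger genes of other kinds, were at 29.4% (108 of 367), near the 30.7% of all protein-coding genes. Scores did not follow this order. The median best score was 137 for marked Klf, Sp and Egr genes, 105 for Gli, Zic and Glis genes, 208 for Sox genes, 174 for Fox genes, 85.6 for Hox genes, 1004 for the 2 marked Gata genes, 200 for the 3 marked Irf genes and 117 for Zfp genes. The median record length was 10.3 kb in the family, against 17.2 kb for all protein-coding genes. Records were shorter in Sox (4.79 kb), Fox (5.19 kb) and Hox genes (3.74 kb). They were longer in Irf (15.7 kb), Zfp (18.2 kb), Gli, Zic and Glis (23.7 kb) and Gata genes (24.1 kb). Among genes with records between 5.31 and 30 kb, the middle range of the family, 11 of 14 members were marked (78.6%), against 30.6% of all. The part of record length in these shares was not tested. No test was made of these differences, since the family was put forward with results of these data known.

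**Figure D5:**
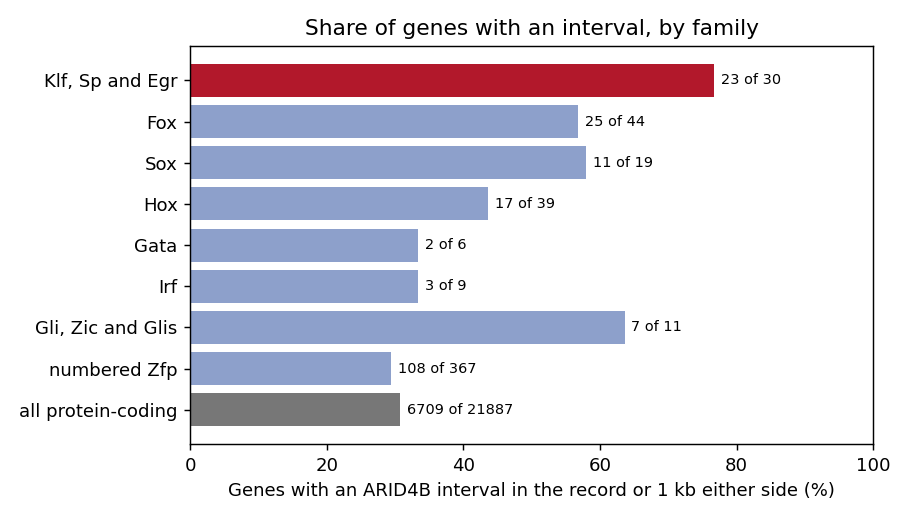
Percent of genes with an ARID4B interval in the record or within 1 kb, for Klf, Sp and Egr genes, 7 sets of other transcription factor genes and all protein-coding genes, with the counts beside each bar. Klf, Sp and Egr genes stand at 76.7%, Zfp genes and all protein-coding genes near 30%.

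Genes that work with these factors were marked to a differing degree. Of 13 partner genes 8 were marked (61.5%), against 30.7% of all protein-coding genes. Wt1, whose zinc finger protein binds sites much like those of Egr proteins and is needed for the gonad, had the highest score of them, 626, with 3 intervals. Of the corepressors of Egr proteins, Nab2 had 3 intervals with a best score of 225 (chr10:127666079-127667716) and Nab1 had none. Of the CtBP genes, Ctbp2 had 2 intervals with a best score of 595 (chr7:133121430-133123480) and Ctbp1 had none. Ep300, a coactivator acetyltransferase gene, had 489 and its relative Crebbp 115. Both SIN3 scaffold genes were marked, Sin3a by 2 intervals with a best score of 402 and Sin3b by 1 with 183. The deacetylase gene Hdac1 had 372, while Med1, Hcfc1 and Hdac2 had none. Hcfc1 lies on the X chromosome, which carried 29 of the 6632 intervals, and the part of the chromosome was not tested. Nab2 and Nab1, Ctbp2 and Ctbp1, and Hdac1 and Hdac2 thus fell on different sides of the marking, while both genes were marked in the pairs Ep300 and Crebbp and Sin3a and Sin3b.

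A list of immediate early genes, their close relatives and the factors that induce them was read in the same way. Egr genes and several Klf genes are switched on in this company. Of the list 19 of 23 genes were marked (82.6%), against 30.7% of all protein-coding genes. Jund had the highest score with 781, followed by Jun (618), Ier5 (539) and Srf, the factor that binds the CArG box (507). Fos and Fosb, induced together with Egr1 in many cells, had only 87.8 and 74.3, and Atf3, Ier3, Elk1 and Elk3 had none. Of these, Elk1 lies on the X chromosome, as Hcfc1 and Klf8 do. The median best score was 137 for the marked Klf, Sp and Egr genes and 159 for the marked genes of this list.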

How the data were processed

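The authors deposited 1 list of 6632 intervals with a score for each. Per the submitters' processing notes the tools were BWA and MACS and the build was mm9, while the name of the list gives mm10. Versions, parameters and filters were not given in the sources used here. Interval positions were read as GRCm38, whose gene ends they match, and whether they were moved from mm9 is not known. The scale of the score is not stated. Its values are too large to be p-values themselves, and whether they were computed from p-values is not known. The score was therefore used only to rank and describe intervals within the list. Read depth is unknown, and its effect on weak intervals too.

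Genes came from a RefSeq table of GRCm38.p6 (assembled chromosomes, 21887 protein-coding genes), and promoter windows and starts from the matching RefSeq promoter table, which listed 22 of the 30 genes and 17492 of all. Klf5, Klf10, Klf14, Klf16, Sp6, Sp7, Egr1 and Egr3 were not among them. Positions are printed counting from 1. Overlaps were computed in Python 3.11.15 with pandas 2.3.3 and numpy 2.4.6, and the overlap step was tested on simulated data. All members are named. The members, their role groups, the 2 lists of related genes and the 7 family patterns were chosen with earlier results of these data known. No test was made, since there is 1 library and the members were so chosen. Alternatives were intervals above the median score, 500 bp and 5 kb windows, record ends only, midpoints, overlap by 50% of the interval, and intervals at a single protein-coding gene. The planned comparison of protein features was not run.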

Additional observations from a re-analysis of the deposited data

How the results depend on the processing

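With only intervals scoring above the list's median, 14 of the 30 genes stayed marked (46.7%) beside 3650 of all protein-coding genes (16.7%), and 4 of the 6 SIN3-recruiting genes, since fewer intervals are counted. Under the other 6 alternatives 18 to 23 of the 30 genes were marked, and 4904 to 7339 of all protein-coding genes (22.4% to 33.5%). The 18 (60.0%) came when only record ends counted, against 27.1% of all protein-coding genes. The SIN3-recruiting genes stayed at 5 of 6 (83.3%) in those 6 alternatives. The median best score of marked members ranged from 132 to 221 over the 7 alternatives, the 221 with only intervals above the list's median. With intervals at a single protein-coding gene, 22 of 30 were marked (73.3%, against 22.4% of all protein-coding genes), Klf3 being the one lost. With 1 library there is no measure of spread between animals. Depth is unknown, so a gene without an interval may lie below the authors' limit, and the 2 lowest-scoring marked genes, Sp7 and Egr2, would be the first to go at a stricter one.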
